A study of Mus musculus with 6 samples.

Results

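The heavy chain variable (Ighv) segments are the gene pieces from which a B-cell assembles the antigen-binding end of its antibody heavy chain. Of the 185 features whose symbol is Ighv followed by a digit, the 81 with at least 20 UMIs (unique molecular identifiers, the counted molecules) summed over the 6 single cell RNA-seq libraries were followed here. They held 13002 of the 13383 Ighv UMIs. The libraries were labelled as mouse GC B cells of genotype Cgamma1-Cre, 3 of them WT controls and 3 *Smc3* +/-. Both groups thus carried the Cre allele that is active in B-cells entering the germinal center (GC). In the second group that Cre was to delete 1 copy of *Smc3*, which encodes a core subunit of the cohesin ring. The study directs this deletion to B-cells entering the germinal center, so T cells, myeloid cells and naive B-cells would keep both copies. By the study's methods, the cells were sorted from spleen after immunization with sheep red blood cells. By the methods the Cre allele is *Ighg1* tm1(cre)Cgn, on a line listed as B6.129P2(Cg), and mice of each genotype are counted there but not tied to these libraries, and no age was given in the sources used here, so the spread between libraries may be partly technical.

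Each developing B-cell joins 1 Ighv segment to a D and a J segment, and the finished chain keeps that Ighv segment for the life of the clone. In the germinal center the joined segment is mutated and the cell selected, and in plasma cells the heavy chain mRNA is made in very large amounts. T cells and myeloid cells do not make a heavy chain, so the Ighv level in them is a background measured in the same way. The libraries count the end of the mRNA that carries the constant region, and the Ighv segment lies at the other end. In plasma-lineage cells there were between 0.263 and 2.02 Ighv UMIs per 1000 UMIs of the heavy chain constant genes.

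The Ighv UMIs came mostly from 1 library. The members had 154, 359 and 322 UMIs in WT replicates 1 to 3, against 88, 11784 and 295 in *Smc3* +/- replicates 1 to 3. *Smc3* +/- replicate 2 therefore supplied 90.6% of them, while its total of 33929291 UMIs lay within the range of the other libraries, from 5223325 to 35354257. Without it, 17 of the 81 members would reach 20 UMIs and 6 would be at 0. A UMI of a member was found in 82.4% of the 3558 cells kept from that library and in 5.30% of the 17251 cells kept from the other 5.

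That library also stood apart in its cells. It held 1737 plasma-lineage cells against 34 to 82 in each of the others, 567 myeloid-like cells against 6 to 17, and 358 GC B-like cells against 655 to 3239. Immunoglobulin genes took 60.6% of its UMIs and between 2.67% and 4.47% in the other 5 libraries. Pairs of libraries shared between 4 and 37 barcodes. *Smc3* itself did not separate the groups, at 145, 155 and 145 CPM (UMIs scaled to the UMI total of the same cells) in the WT libraries and 147, 28.4 and 160 CPM in the *Smc3* +/- libraries over all kept cells. The edgeR fits used TMM scaling, which set *Smc3* +/- replicate 2 higher against the other libraries, with *Smc3* at 66.2 there. Within GC B-like cells the scaled *Smc3* level was 134 there and 148 to 184 in the other libraries. Counting the end of the mRNA does not check the exon deletion. Most of the genotype results below are also given without *Smc3* +/- replicate 2. Exceptions include the DESeq2 tests, the related genes within classes, and the match of segments between cells, which is given as a range over left-out libraries.

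The members span the Ighv locus of chromosome 12 (GRCm38) from 113578504 to 116000461, all on the minus strand, with *Ighm*, the first constant gene, at 113418558 to 113422730. All 81 matched a GENCODE M21 gene of the same name. They belong to 11 of the 16 Ighv families listed, a family being a group of segments alike in sequence. The Ighv1 family has 45 members and had 7015 UMIs, the Ighv5 family 8 members and 1302 UMIs, and the Ighv3 family 4 members and 1287 UMIs. Family Ighv1 made up 53.6% of the UMIs in *Smc3* +/- replicate 2 and 57.0% in the other 5 libraries together, where single libraries ran from 40.3% to 64.3%. With the 185 features cut into 3 stretches of 61, 62 and 62, the stretch nearest to *Ighm* held 33.3% of the UMIs of *Smc3* +/- replicate 2, the middle stretch 31.2% and the farthest 35.6%. In the other 5 libraries together the same shares were 35.6%, 25.7% and 38.7%, so UMIs came from the whole length of the locus.

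The UMIs of single members ran from 20 to 998, with a median of 86, and the 10 highest held 41.9% of the total. *Ighv3-6* had 998 UMIs, *Ighv1-19* 971, *Ighv1-55* 549 and *Ighv10-3* 547. At the other end *Ighv1-43*, with 20 UMIs, and *Ighv1-7*, with 21, were just inside the minimum, and *Ighv1-31*, with 19, and *Ighv1-34*, with 18, were just outside it. The annotation calls 75 members V genes and 6 pseudogenes. The pseudogenes held 4.28% of the UMIs, and 1 of them, *Ighv1-14*, had 362 UMIs, 358 of them in *Smc3* +/- replicate 2. Of the 104 Ighv features that were not members, 52 had no UMI at all.

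Neighbouring segments resemble each other, which limits how surely a UMI can be given to 1 of them. Over the last 290 bases of the V exon, or fewer where the transcript is shorter, the median identity of a member to its nearest Ighv relative was 95.5%, and 44 of 81 members had a relative above 95%. Bases were compared without gaps, which understates the likeness of segments that differ in length. Counted in stretches of 90 bases, 47 members had no stretch that recurred unchanged in another Ighv gene, and 1, *Ighv1-72*, had more than 50% of its stretches in common with another, its nearest relative being *Ighv1-62-3*. *Ighv1-47*, *Ighv1-19*, *Ighv10-3*, *Ighv3-6* and *Ighv5-2* shared no such stretch. Mutated copies of a segment can lie nearer to another segment than these germline figures show.

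The 3 leading segments differed in part between libraries, and the leading position rested on few cells in some of them. In WT replicate 1 the leaders were *Ighv1-9* with 20 UMIs, *Ighv1-55* with 17 and *Ighv2-9-1* with 17. WT replicate 2 was led by *Ighv1-64* with 26 UMIs, *Ighv1-55* with 25 and *Ighv3-6* with 25, and WT replicate 3 by *Ighv1-19* with 29, *Ighv1-9* with 23 and *Ighv1-55* with 22. *Ighv1-55* was thus among the first 3 in every WT library, with 11.0%, 6.96% and 6.83% of the UMIs.

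Of the *Smc3* +/- libraries, replicate 1 was led by *Ighv1-19*, as was WT replicate 3, with 8 UMIs, followed by *Ighv1-2*, *Ighv1-9*, *Ighv2-5* and *Ighv5-6* with 6 each, which at 88 UMIs in total gives no reliable order. Replicate 2 was led by *Ighv3-6* with 955 UMIs, *Ighv1-19* with 910 and *Ighv10-3* with 539. Replicate 3 was led by *Ighv5-2* with 58 UMIs, or 19.7% of its Ighv UMIs, then *Ighv9-3* with 26 and *Ighv1-55* with 17.

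**Figure D1:**
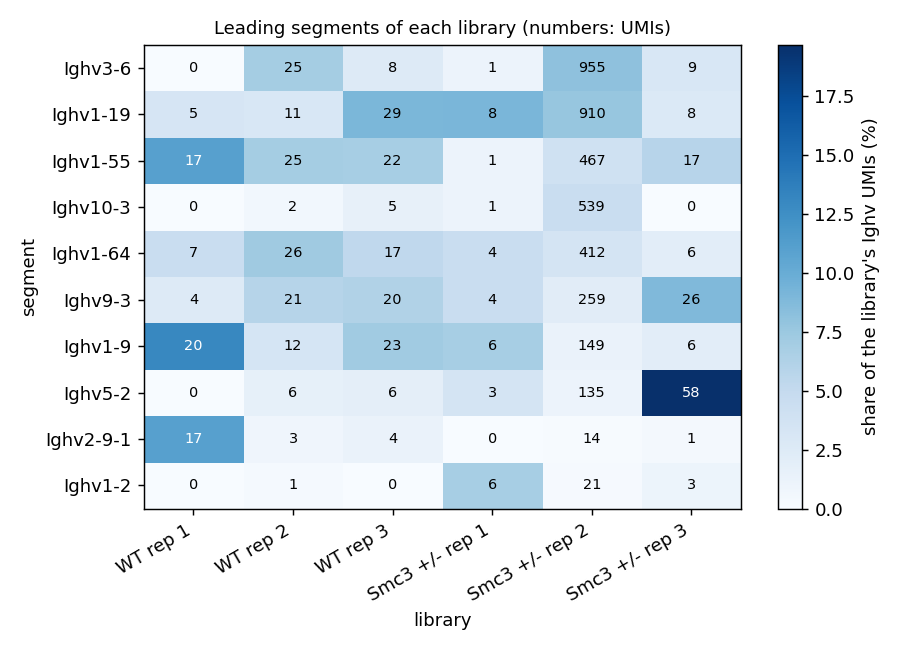
Shading gives the share (%) of each library's Ighv UMIs taken by a segment, and the number in each square is its UMI count, for every segment among the 3 highest of any library, with *Ighv2-5* and *Ighv5-6*, which tie at 6 UMIs in *Smc3* +/- replicate 1, left out. The darkest square is *Ighv5-2* in *Smc3* +/- replicate 3 at 19.7%, while *Ighv3-6* leads *Smc3* +/- replicate 2 with 955 UMIs at 8.10%.

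The number of cells behind a leading segment differed. In WT replicate 3, 26 UMIs of *Ighv1-19* lay in 26 kept cells, 1 in each. In *Smc3* +/- replicate 3, by contrast, 49 of the 57 UMIs of *Ighv5-2* in kept cells lay in a single plasma-lineage cell, and only 4 cells had any. In *Smc3* +/- replicate 1 all 6 UMIs of the pseudogene *Ighv1-2* lay in 1 plasma-lineage cell. In WT replicate 2 a single plasma-lineage cell held 10 of 23 UMIs of *Ighv3-6*. The 869 UMIs of *Ighv3-6* in kept cells of *Smc3* +/- replicate 2 were spread over 690 cells and the richest of them held 8. A rank in a small library can therefore be the rank of 1 cell.

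The overall mix of segments was partly shared between libraries. Across the 81 members the Pearson correlation of UMIs was 0.685 between WT replicates 2 and 3, the highest of the 15 pairs of libraries. It ran from 0.134 to 0.577 between *Smc3* +/- replicate 2 and the other libraries and from 0.162 to 0.685 among those. These are descriptions across segments that differ in length and in how well they can be told apart.

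Cells were grouped by their transcripts into classes, namely plasma-lineage, GC B-like, T cell-like, myeloid-like and naive or memory B-like cells, with immunoglobulin genes kept out of the clustering. The Ighv level of plasma-lineage cells was above that of GC B-like cells in all 6 libraries, and among GC B-like, plasma-lineage, T cell-like and naive or memory B-like cells it was the highest in 4 of them, or in 3 when the cell richest in Ighv UMIs of each library was left out. In WT replicate 1 and *Smc3* +/- replicate 2 the T cell-like and the naive or memory B-like levels were higher. The plasma-lineage level was 24.6, 44.9 and 25.3 CPM in the WT libraries and 35.3, 336 and 61.1 CPM in *Smc3* +/- replicates 1 to 3. Single cells weigh on these values, since 49 of the 69 UMIs of *Smc3* +/- replicate 3 lay in 1 cell, without which its level was 18.0 CPM. GC B-like cells had 22.6, 8.35 and 6.99 CPM and 4.34, 336 and 6.46 CPM in the same order. Naive or memory B-like cells had 51.8, 18.7 and 19.96 CPM and 3.60, 435 and 17.5 CPM. T cell-like cells, on 1 to 7 UMIs outside *Smc3* +/- replicate 2, had 55.1, 11.7 and 22.1 CPM and 7.16, 441 and 5.46 CPM. All classes of *Smc3* +/- replicate 2 had a high level.

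**Figure D2:**
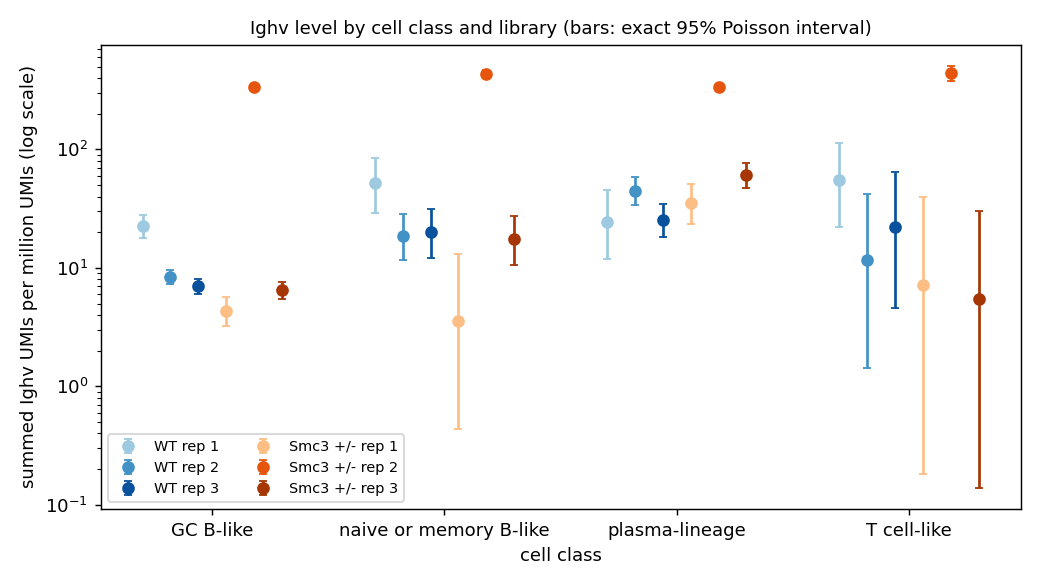
Points give the summed Ighv level in CPM (log scale) of each library in 4 cell classes, and bars the exact 95% Poisson interval, which covers counting error only. *Smc3* +/- replicate 2 lies between 336 and 441 CPM in all 4 classes, above every other library.

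The plasma-lineage level exceeded the GC B-like level in 6 of 6 libraries. The difference on the log2 scale was 0.12, 2.43 and 1.86 in the WT libraries and 3.03, 0.0035 and 3.24 in the *Smc3* +/- libraries, with a mean of 1.78 ± 1.42 (SD, n = 6). The exact two-sided sign-flip test over libraries gave p = 0.031, the smallest it can give, and an adjusted p = 0.125 over the 4 comparisons between classes that could be made, so it did not pass 0.05. Leaving out the richest cell of each library, the mean was 1.31 with the difference at 1.48 in *Smc3* +/- replicate 3 and -0.053 in replicate 2. The 2 plasma clusters are not alike across libraries. The cluster led by *Prg2* and *Jchain* held 1380 of the plasma-lineage cells of *Smc3* +/- replicate 2 and 12 to 23 cells in each other library, where its Ighv level ran from 40.4 to 154 CPM. The cluster led by *Hsp90b1* held 357 cells of that library and 22 to 66 in the others, at 14.1 to 64.8 CPM outside it. The value of 64.8 CPM, in *Smc3* +/- replicate 3, fell to 13.9 without its richest cell.

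The naive or memory B-like level exceeded the GC B-like level in 5 of 6 libraries, by a mean log2 difference of 0.90 ± 0.70 (SD, n = 6), with exact sign-flip p = 0.0625 and adjusted p = 0.125. Counted per cell and not as CPM, the mean difference turned to -0.31, since naive or memory B-like cells have fewer UMIs in all. The scale matters in the same way against T cell-like cells. As CPM, GC B-like cells lay above the T cell-like cells of their own library in 1 of 6 libraries, naive or memory B-like cells in 2 and plasma-lineage cells in 4. Per cell, GC B-like cells lay above T cell-like cells in 6 of 6 libraries with a mean log2 difference of 1.06 ± 0.74 (SD), and plasma-lineage cells in 6 of 6 with 3.87 ± 1.92, both with exact sign-flip p = 0.031 and adjusted p = 0.0938 over 6 such comparisons. The median T cell-like cell had 1207 to 1948 UMIs and the median GC B-like cell 4386 to 7281, so the order of both classes depends on the scale.

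Within GC B-like cells the sub-classes had similar levels. Centroblast-like (CB-like) cells ranged from 4.59 to 24.0 CPM outside *Smc3* +/- replicate 2, S-phase cells from 3.92 to 26.9 CPM, centrocyte-like (CC-like) cells from 1.07 to 12.5 CPM and recycling-like cells from 5.27 to 17.9 CPM. The same sub-classes of *Smc3* +/- replicate 2 had 365, 323, 364 and 276 CPM. The intervals overlapped within most libraries, and CC-like cells rested on as few as 1 UMI.

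The CPM level and the mix in *Smc3* +/- replicate 2 were close in cells that should and should not make a heavy chain. T cell-like cells had 191 Ighv UMIs, or 441 CPM with an exact 95% interval of 381 to 509, and myeloid-like cells 637 UMIs, or 367 CPM (339 to 396). Plasma-lineage cells had 8347 UMIs, or 336 CPM (329 to 344), but their immunoglobulin UMIs swell the denominator. Per cell the classes differed, at 4.81 Ighv UMIs in plasma-lineage, 2.19 in GC B-like, 1.27 in naive or memory B-like, 1.35 in T cell-like and 1.12 in myeloid-like cells. Across the 81 members the mix in plasma-lineage cells correlated with that in GC B-like cells at Pearson r = 0.937, naive or memory B-like cells at 0.939, myeloid-like cells at 0.932 and T cell-like cells at 0.854, all within 1 library. *Ighv3-6* and *Ighv1-19*, for example, took 7.67% and 7.15% of the UMIs in plasma-lineage cells and 7.69% and 8.01% in myeloid-like cells. On the CPM scale no B-cell class of this library exceeded the T cell-like level, plasma-lineage cells included. Over UMIs of genes other than immunoglobulin genes the plasma-lineage level was 1401 CPM, against 466 in T cell-like and 380 in myeloid-like cells, and per cell GC B-like and plasma-lineage cells were above T cell-like cells.

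The ratio of Ighv to other antibody transcripts was not the same. Per 1000 UMIs of the heavy chain constant genes there were 2.02 Ighv UMIs in plasma-lineage cells of *Smc3* +/- replicate 2, 47.4 in T cell-like and 44.0 in myeloid-like cells, with *Igha* making up 94.9%, 95.2% and 95.9% of the constant gene UMIs. Per 1000 UMIs of *Jchain*, the joining chain of secreted IgA and IgM, there were 3.49, 81.9 and 81.3. GC B-like and naive or memory B-like cells of that library had 35.0 and 51.7 Ighv UMIs per 1000 constant gene UMIs, and 103 and 281 per 1000 of *Jchain*. Ratios to the constant genes thus lay between 35.0 and 51.7 in these 4 classes and at 2.02 in plasma-lineage cells. In the other 5 libraries T cell-like and GC B-like cells also lay above plasma-lineage cells. T cell-like cells had 6.58 to 50.7, on 1 to 7 Ighv UMIs each, and plasma-lineage cells 0.263 to 0.973. Naive or memory B-like cells lay above plasma-lineage cells except in *Smc3* +/- replicate 1, at 0.564, on 2 Ighv UMIs, against 0.602. Myeloid-like cells had no Ighv UMI in WT replicates 1 and 3 and *Smc3* +/- replicate 1. The 568 barcodes of this library that were left out by the filters had 375 CPM.

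A cell that keeps 1 segment should show 1 segment, so the share of a cell's Ighv UMIs held by its leading segment was read next, along with the chance that a pair of UMIs name the same segment. A pair of UMIs from the same plasma-lineage cell of *Smc3* +/- replicate 2 matched in 9.45% of draws, averaged over 1491 cells, against 2.98% for a pair from different plasma-lineage cells. In the other classes of that library the 2 values were close. They were 3.32% within and 3.46% between GC B-like cells, 3.20% and 3.22% for naive or memory B-like cells, 2.34% and 2.89% for T cell-like cells, and 3.62% and 2.99% for myeloid-like cells. This measure was added after the data had been seen, and cells of 1 library are not replicates, so no test was made.

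**Figure D3:**
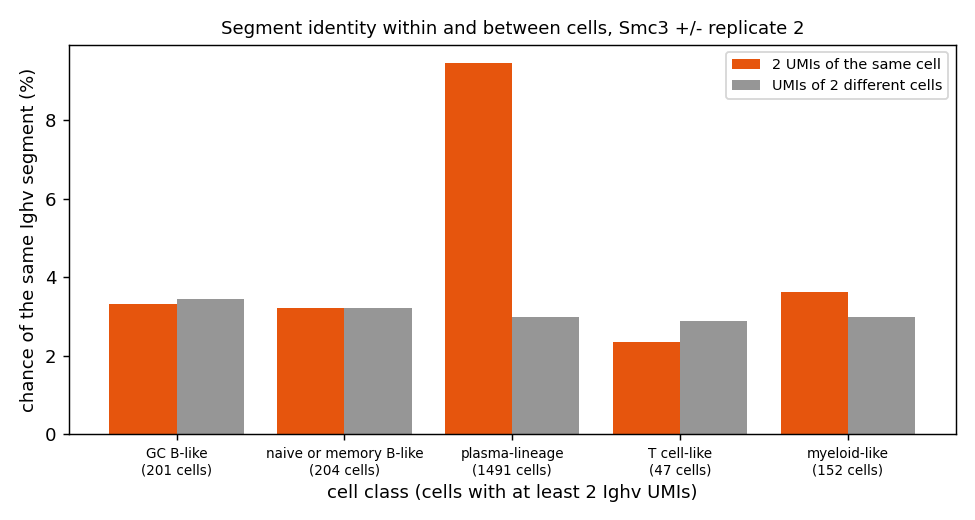
Bars give the chance (%) that a pair of Ighv UMIs come from the same segment, within a cell (orange) and between cells (grey), in each cell class of *Smc3* +/- replicate 2. The plasma-lineage bars stand at 9.45% and 2.98%, and in the other 4 classes the pair lies within 1 percentage point.

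Of the other 5 libraries, 4 had a far higher within-cell match. Over all kept cells the within-cell match was 59.3% in WT replicate 2 (27 cells with at least 2 UMIs), 73.3% in WT replicate 3 (21 cells), 73.8% in *Smc3* +/- replicate 1 (7 cells) and 73.3% in *Smc3* +/- replicate 3 (15 cells), against 2.72% to 3.76% between cells. WT replicate 1, the smallest library, was nearer to *Smc3* +/- replicate 2, at 12.5% on 8 cells, with the highest between-cell match, 6.79%. In GC B-like cells the within-cell match was 46.2% in WT replicate 2 (13 cells), 65.7% in WT replicate 3 (7 cells) and 63.6% in *Smc3* +/- replicate 3 (11 cells), against 16.7% in WT replicate 1 (6 cells) and 50% in *Smc3* +/- replicate 1 (2 cells).

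An assigned cell was one with at least 3 Ighv UMIs of which more than 50% came from 1 segment. *Smc3* +/- replicate 2 had 1272 plasma-lineage cells with at least 3 Ighv UMIs, and 182 of them, 14.3% (exact 95% binomial interval 12.4% to 16.4%), were assigned. In its GC B-like cells it was 5 of 122, or 4.10% (1.34% to 9.31%), in naive or memory B-like cells 6 of 78, or 7.69%, in myeloid-like cells 7 of 68, or 10.3%, and in T cell-like cells 2 of 23, or 8.70% (1.07% to 28.0%). The median leading share was 33.3% in each of these classes, which is the least a cell with 3 UMIs can have. Among cells with at least 10 Ighv UMIs, 41 of 119 plasma-lineage cells, 34.5% (26.0% to 43.7%), had 1 segment above 50%, against none of 5 GC B-like, 1 T cell-like and 2 myeloid-like cells. In the other 5 libraries 26 cells had 3 or more Ighv UMIs, and 22 of them were assigned, 84.6% (65.1% to 95.6%). All intervals cover counting error only.

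Of those 22 cells, 11 were plasma-lineage, out of 329 such cells, and 8 were GC B-like, out of 11526. They carried named segments that were clear in single cells. In WT replicate 2 an *Igha*-led plasma-lineage cell had 11 of 11 UMIs from *Ighv1-26* and another 10 of 10 from *Ighv3-6*, while a CB-like cell had 6 of 6 from *Ighv9-3*. In WT replicate 3 an *Igha*-led plasma-lineage cell had 9 of 10 from *Ighv1-53*. In *Smc3* +/- replicate 3 an *Ighg1*-led plasma-lineage cell had 49 of 49 from *Ighv5-2*. A further 3 CB-like cells of the same library had 5 of 5 from *Ighv5-2*, 6 of 6 from *Ighv1-19* and 7 of 7 from *Ighv9-3*. *Ighv5-2* was thus dominant both in an *Ighg1*-led plasma-lineage cell and in an *Ighg1*-led CB-like cell of that library. WT replicate 1 had no assigned cell.

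The 182 assigned plasma-lineage cells of *Smc3* +/- replicate 2 used 44 segments. *Ighv1-47* and *Ighv1-19* led 23 cells each, together 25.3% of the assigned cells. *Ighv10-3* and *Ighv3-6* led 12 each, *Ighv2-5* 8, and *Ighv1-5*, *Ighv1-64* and *Ighv10-1* 7 each. The unbiased Simpson index, the chance that 2 assigned cells share a segment, was 5.05%, equal to 19.8 segments in equal use. It was 4.56% over the 154 assigned cells of the *Prg2*-led cluster and 7.41% over the 28 of the *Hsp90b1*-led cluster, with 17 and 6 cells of *Ighv1-47*. Ranked by cells and by UMIs the order differs, since *Ighv1-47* had 244 UMIs in plasma-lineage cells of this library, eighth in that list, against 640 for *Ighv3-6*. The leading segments of assigned cells accounted for 13.1% of the Ighv UMIs in these plasma-lineage cells.

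**Figure D4:**
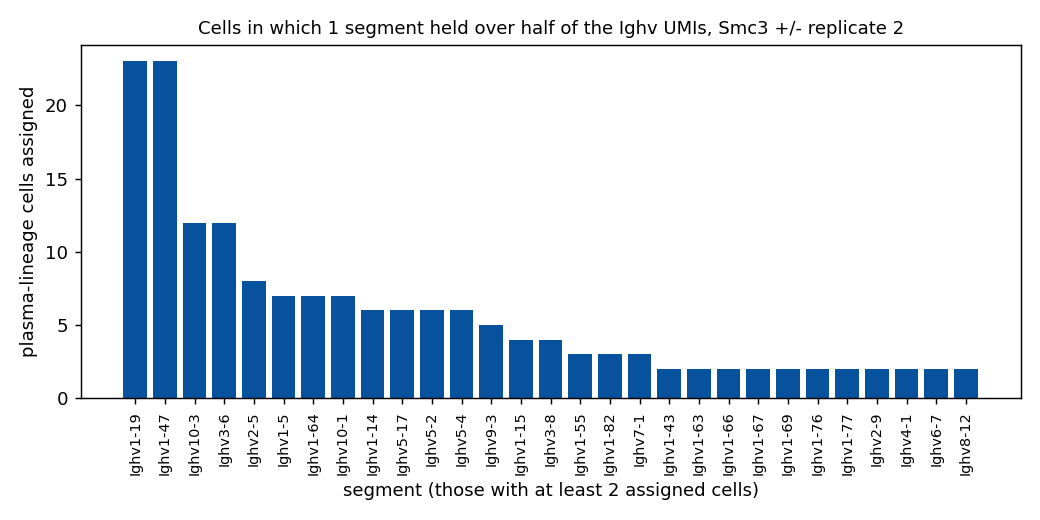
Bars count the plasma-lineage cells of *Smc3* +/- replicate 2 assigned to each segment (at least 3 Ighv UMIs, more than 50% of 1 segment), for segments with at least 2 such cells. *Ighv1-47* and *Ighv1-19* have 23 cells each, and *Ighv10-3* and *Ighv3-6* 12 each.

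The ends of the V exons of 5 of these segments are shown because they carry the per-cell assignments. They are the last 120 bases of the GENCODE M21 transcripts on the minus strand of chromosome 12 (GRCm38), written 5′ to 3′, with the codons of the conserved tyrosine, tyrosine or phenylalanine, and cysteine before the junction in capitals. *Ighv1-47* lies at chr12:114991108-114991227, *Ighv1-19* at chr12:114708648-114708767, *Ighv10-3* at chr12:114523441-114523560, *Ighv3-6* at chr12:114288152-114288271 and *Ighv5-2* at chr12:113578504-113578623.
Ighv1-47: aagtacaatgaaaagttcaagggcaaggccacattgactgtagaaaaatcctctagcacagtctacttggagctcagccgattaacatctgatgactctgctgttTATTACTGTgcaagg
Ighv1-19: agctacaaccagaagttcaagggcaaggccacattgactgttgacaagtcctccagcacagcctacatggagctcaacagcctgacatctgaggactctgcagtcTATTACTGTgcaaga
Ighv10-3: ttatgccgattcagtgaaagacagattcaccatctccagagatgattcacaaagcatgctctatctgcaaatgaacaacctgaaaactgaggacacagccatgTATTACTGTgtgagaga
Ighv3-6: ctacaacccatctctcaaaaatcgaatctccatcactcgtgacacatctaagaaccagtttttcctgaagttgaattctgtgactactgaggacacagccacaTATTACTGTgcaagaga
Ighv5-2: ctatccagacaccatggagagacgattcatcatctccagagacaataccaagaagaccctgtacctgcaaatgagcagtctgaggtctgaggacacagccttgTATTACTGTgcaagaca

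All 5 carry the same 3 codons, and the bases before them differ. *Ighv1-47* and *Ighv1-19*, both of family Ighv1, differed at 20 of these 120 bases and were 82.8% identical over 290 bases.

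The assigned cells were mostly of 1 isotype. *Igha*, the constant gene of IgA, led the heavy chain constant UMIs in 176 of 182 assigned plasma-lineage cells (96.7%), in 1023 of 1090 cells with at least 3 Ighv UMIs that were not assigned (93.9%) and in 1631 of all 1737 (93.9%). All 23 cells of *Ighv1-47* and all 23 of *Ighv1-19* were *Igha*-led, as were all 12 of *Ighv10-3*, against 10 of 12 of *Ighv3-6*.

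Some heavy chain segments occurred with a recurrent kappa light chain segment (Igkv). Igkv assignment followed the same rule and was possible in 694 plasma-lineage cells of the library. Of the 23 *Ighv1-47* cells, 5 had an assigned Igkv segment, and it was *Igkv4-53* in 4 of them, against 9 of 689 other plasma-lineage cells (1.31%). All 4 such cells of *Ighv10-3* had *Igkv4-90*, against 9 of 690 (1.30%), and 4 of 5 of *Ighv1-5* had *Igkv6-23*, against 22 of 689 (3.19%). All 3 cells of *Ighv7-1* had *Igkv12-46*, against 32 of 691 (4.63%). *Ighv1-19*, with as many cells as *Ighv1-47*, had as its most frequent Igkv segment *Igkv14-111*, in 2 of 8 cells, against 30 of 686 (4.37%). These pairs were picked for their counts and are descriptions within 1 library.

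A single plasma-lineage cell of *Smc3* +/- replicate 2 had 327 Ighv UMIs, more than any other kept cell, the next in that library having 28. *Ighv1-82* held 181 of them and *Ighv1-80* 135, and all other segments together were few, the next being *Ighv1-19* with 4. The cell was *Igha*-led with 21054 UMIs in all. It alone held 181 of the 307 UMIs of *Ighv1-82* found in plasma-lineage cells of that library. The germline ends of both segments are shown because they are close relatives, at chr12:115952538-115952657 and chr12:115912344-115912463 on the minus strand, with the codons at the same place in capitals.
Ighv1-82: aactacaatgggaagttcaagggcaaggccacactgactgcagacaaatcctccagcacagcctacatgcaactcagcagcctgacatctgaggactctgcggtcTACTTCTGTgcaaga
Ighv1-80: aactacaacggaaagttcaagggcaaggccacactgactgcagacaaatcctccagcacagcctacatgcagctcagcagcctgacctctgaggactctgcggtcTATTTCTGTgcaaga

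They differed at 5 of the 120 bases and were 96.2% identical over 290. Whether that cell carried 1 segment whose UMIs were divided between both names, or 2 segments, cannot be told apart from counts per gene.

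The genotypes were compared over libraries, 3 against 3, for which the smallest exact two-sided permutation p is 0.1. Over all kept cells the Ighv level was 15.2 ± 9.54 CPM in WT (SD, n = 3) and 120 ± 195 CPM in *Smc3* +/- (SD, n = 3), with permutation p = 0.9. Without *Smc3* +/- replicate 2 the difference turned from 105 to -7.77 CPM, and the other *Smc3* +/- libraries, at 5.92 and 9.02 CPM, lay within or below the range of the WT libraries, at 26.2, 10.5 and 9.01 CPM. In GC B-like cells it was 12.7 ± 8.66 and 115 ± 191 CPM (exact p = 1), turning to a difference of -7.26 without that library. In plasma-lineage cells it was 31.6 ± 11.5 and 144 ± 167 CPM (exact p = 0.2), and 16.6 CPM higher in *Smc3* +/- without it, which turned to -3.56 CPM when the cell richest in Ighv UMIs of each library was left out as well. No direction by genotype can be drawn from these levels.

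The segment concentration by the Simpson index could be computed in 1 library, *Smc3* +/- replicate 2, since no other had 10 assigned cells in any class. In its place, the chance that UMIs of 2 cells share a segment was read over all cells with an Ighv UMI. Over all kept cells it was 6.79%, 3.12% and 3.76% in the WT libraries and 2.72%, 3.08% and 2.75% in the *Smc3* +/- libraries. The groups did not overlap, with exact permutation p = 0.1, the smallest possible, and a difference of -1.71 percentage points. The difference was -0.590 without WT replicate 1, the library with 28 detected segments. In GC B-like cells the groups overlapped, with 8.01%, 3.49% and 4.28% against 2.36%, 3.46% and 3.51% (exact p = 0.2). The share of each Ighv family did not differ between naive or memory B-like and GC B-like cells in a sign-flip test over 6 libraries at the threshold, with all 11 exact adjusted p at 0.688 or above, on as few as 2 UMIs in a library.

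In the edgeR test of genotype over all genes (quasi-likelihood, Benjamini-Hochberg adjustment), 9 of 81 members passed the filter on low counts over all kept cells, 4 in GC B-like cells and none in naive or memory B-like or plasma-lineage cells. No member passed adjusted p of 0.05, nor did any other gene in the 4 classes, so the background was 0% of 11840 genes over all kept cells, 0% of 10881 in GC B-like, 0% of 6937 in naive or memory B-like and 0% of 6015 in plasma-lineage cells. DESeq2 called 0, 2, 0 and 0 genes in these classes (0.0118% in GC B-like cells), none a member, but gave an adjusted p to 41 of 81 members over all kept cells, 78 of 79 in GC B-like, 79 of 79 in naive or memory B-like and 54 of 81 in plasma-lineage cells. *Ighv3-6*, *Ighv1-19*, *Ighv10-3* and *Ighv1-55* had none over all kept cells or in plasma-lineage cells, so for them DESeq2 gave no test there. With no filter on low counts edgeR called 6 of 79 members in naive or memory B-like cells, beside 0.265% of all genes, and 1 of 81 in plasma-lineage cells, beside 0.0136%. All 7 calls had a higher estimate in *Smc3* +/-. Of the 6, *Ighv10-3*, *Ighv1-14* and *Ighv5-17* reach the minimum of 20 UMIs only through *Smc3* +/- replicate 2, so the choice of members favoured that direction. With no filter and without *Smc3* +/- replicate 2, edgeR called none of 74 members over all kept cells (background 0.0168%), none of 71 in GC B-like (0.0359%), none of 41 in naive or memory B-like (0.131%) and 1 of 50 in plasma-lineage cells (0.258%). That 1 was *Ighv5-2*, with 0 UMIs in the plasma-lineage cells of each WT library and 2, 113 and 49 in those of the *Smc3* +/- libraries, the 49 all in 1 cell. Over all barcodes *Ighv5-2* had 0, 6 and 6 UMIs in the WT libraries and 3, 135 and 58 in the *Smc3* +/- libraries. With the filter and without *Smc3* +/- replicate 2 the call rate in plasma-lineage cells was 0.0158%, or 1 gene, which was no member. At an unadjusted p under 0.05 edgeR had 184, 191, 134 and 210 genes. Over all kept cells 1 of these was a member, *Ighv1-19*, with a log2 fold change of 5.46 ± 2.25 (SE) and an edgeR adjusted p = 0.927. It had 0.634, 0.223 and 0.786 CPM in the WT libraries and 0.577, 25.98 and 0.262 CPM in the *Smc3* +/- libraries. The median log2 fold change of the 9 members was 3.71 and turned to -1.61 over the 9 tested without *Smc3* +/- replicate 2, beside medians of 0.00087 and -0.0037 over all genes.

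Related genes showed no call in any class either, whether constant and J genes, genes that join or mutate the segment, or transcription factors of the locus, listed together with *Jchain*. Of 12 constant and J genes, 8 were tested over all kept cells, 6 of them with a higher estimate in *Smc3* +/-, with a median log2 difference of 1.56. *Igha* was at 5.28 ± 2.36 (SE), from 5819, 1187 and 2216 CPM in the WT libraries and 1204, 125770 and 1175 CPM in the *Smc3* +/- libraries, so the higher estimate came from replicate 2, and the other *Smc3* +/- libraries lay within or below the WT range. Plasma-lineage cells were 1737 of 3558 in replicate 2, but its *Igha* was also higher within each class (CPM after TMM scaling). It was 7147 against 36.5 to 112 in GC B-like cells and 4918 against 83.1 to 343 in naive or memory B-like cells. In plasma-lineage cells it was 470500 against 14360 to 58150. Why was not tested. *Ighg1* was at -0.68 ± 0.41. Of 8 genes of recombination and diversification, which make or mutate the joined segment, 5 were tested over all kept cells, all with lower estimates, at a median of -0.38. *Ung*, which removes uracil from DNA, was at -0.38 ± 0.45 (SE), with 8.77 CPM in *Smc3* +/- replicate 2 and 70.7 to 97.7 CPM in the other 5. Within GC B-like cells *Ung* was at 72.4 CPM there and 83.9 to 106 CPM in the other 5, after TMM scaling. *Rag1*, *Rag2* and *Dntt*, which act when the segments are first joined, did not pass the filter. All 5 transcription factors and *Jchain* were tested over all kept cells. The 5 factors had lower estimates, and *Jchain* had a higher one, at 4.39 ± 1.83 (SE), with 76483 CPM in *Smc3* +/- replicate 2 and 2469 to 5312 CPM in the other 5 libraries. *Pou2af1*, the coactivator bound at the promoter octamer of Ighv segments, was at -0.20 ± 0.18. Without *Smc3* +/- replicate 2 there was again no call over all kept cells, and several directions turned. *Igha* was at -1.35 ± 0.58 (SE), *Jchain* at -0.35 ± 0.32 and *Ung* at 0.00076 ± 0.13. *Ighg2c* moved from 3.39 ± 2.32 to -4.53 ± 0.54 (SE), with an edgeR adjusted p = 0.44, from 104, 94.8 and 35.0 CPM in the WT libraries and 2.74, 879 and 3.74 CPM in the *Smc3* +/- libraries. The list medians became -0.52 for the constant and J genes (2 of 8 higher), 0.011 for recombination and diversification (4 of 5 higher) and -0.13 for the factors with *Jchain* (1 of 6 higher).

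Within the classes, over all 6 libraries, the constant and J genes had higher estimates for 5 of 8 in GC B-like cells (median 0.38), 5 of 7 in naive or memory B-like cells (1.09) and 4 of 6 in plasma-lineage cells (0.43). The factors with *Jchain* had higher estimates for 1 of 6 in GC B-like cells (median -0.15), 2 of 6 in naive or memory B-like cells (-0.092) and 5 of 5 in plasma-lineage cells (0.40). Genes of recombination and diversification had higher estimates for 0 of 5 in GC B-like cells, 2 of 4 in naive or memory B-like cells (median -0.071) and 0 of 3 in plasma-lineage cells (-0.92). All of these within-class estimates include *Smc3* +/- replicate 2, in which *Igha* was highest in each class. They were not fitted again without that library, so no direction by genotype can be drawn from them.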

How the data were processed

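The deposited files hold raw UMI counts per feature and barcode, made by the authors with Cell Ranger (mm10 per the submitters' processing notes), 1 matrix per library. Barcodes with at least 500 genes and at most 10% mitochondrial UMIs were kept, and the highest Scrublet scores (0.8% per 1000 barcodes, 759 in all; scanpy 1.11.5) were removed as doublets, which left 20809 of 22939 barcodes. Libraries were integrated and clustered in Seurat 5.3.0 (reciprocal PCA, 30 components, 20 neighbours, resolution 0.5) without immunoglobulin, mitochondrial and ribosomal genes. Classes were named from marker lists, with a scoring rule (mean log2 fold of at least 0.3) written after the clusters had been seen, so class names need not equal those of the study. The haemoglobin-led cluster of 3726 cells, the largest, stayed unnamed under a rule that left any cluster led by a haemoglobin gene unnamed. Its highest B-cell score was centrocyte-like, at 0.385. Its *Cd79a* was at 2539 CPM without immunoglobulin genes, against 112 in T cell-like cells. The GC B-like and CC-like values thus omit it. Also unnamed were the interferon-led cluster, a *C1qa*-led cluster of 62 cells and a *Cst3*-led cluster of 60 (55 of them from *Smc3* +/- replicate 2). The *C1qa*-led and *Cst3*-led clusters lie outside the myeloid-like class.

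Ighv UMIs of the members were summed per library and class, and depth was 5223325 to 35354257 UMIs per library. Counts were tested in edgeR 4.0.16 (TMM, filterByExpr, quasi-likelihood, R 4.3.3), which recovered changes of known size in simulated data, with DESeq2 1.42.0 as an alternative. The simulated counts had no library set apart like *Smc3* +/- replicate 2, so they do not show how well a change in the members would be found. Levels and shares were compared with exact permutation or sign-flip tests over libraries, and intervals are exact. Segments were named where they led a library, or a class by assigned cells, or lay at the minimum, or passed the test. Alternatives were another scaling, no filter, resolution 1, other assignment minima, all barcodes, a replicate block and leaving out each library. Per-cell levels, other denominators, barcodes of 1 library only, leaving out the cell richest in Ighv UMIs of each library, leaving out *Smc3* +/- replicate 2 with no filter on low counts or for the related genes, the between-cell match and the comparison with T cell-like cells were added after seeing the data. The members and lists were chosen with earlier results of these data known. Deviations of same-numbered libraries correlated between -0.159 and 0.253 over all kept cells, and above 0.1 for all 3 numbers only in naive or memory B-like cells (0.125 to 0.3). Sequences and coordinates are from GENCODE M21. The result for 1 gene of the lists is not reported here.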

Additional observations from a re-analysis of the deposited data

Results flagged for a closer look

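The level of Ighv UMIs in T cell-like and myeloid-like cells, which entered the genotype comparisons only as part of all kept cells, stood out in *Smc3* +/- replicate 2. It was 441 CPM in its 142 T cell-like cells, against 55.1, 11.7 and 22.1 CPM in the WT libraries and 7.16 and 5.46 CPM in *Smc3* +/- replicates 1 and 3. In its 567 myeloid-like cells it was 367 CPM, against 0, 25.8 and 0 CPM in the 7, 14 and 17 such cells of the WT libraries. *Smc3* +/- replicates 1 and 3 had 0 and 19.8 CPM in 6 and 15 such cells.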

How the results depend on the processing

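The genotype difference in summed Ighv level (105 CPM over all kept cells, 103 in GC B-like, 122 in naive or memory B-like and 113 in plasma-lineage cells) rested on *Smc3* +/- replicate 2. Leaving out each library in turn gave -7.77 to 162, -7.26 to 158, -19.6 to 196 and 16.6 to 167 CPM, the lowest each time without that library, and leaving out the richest cell of each library too gave -8.37, -6.99, -19.6 and -3.56 CPM. With the replicate number as a block (exact sign flip over 3 pairs, smallest p 0.25) the 4 differences stayed at 105, 103, 122 and 113 CPM, with p = 0.75, 1, 1 and 0.25. Over UMIs of genes other than immunoglobulin genes the differences were 281, 107, 127 and 465 CPM. The between-cell match differed by -2.43 to -0.590 percentage points over all kept cells, -3.04 to -0.777 in GC B-like, -3.31 to -0.873 in naive or memory B-like and -2.52 to -0.0401 in plasma-lineage cells, the smallest each time without WT replicate 1.

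The naive or memory B-like excess over GC B-like cells turned to -0.31 (log2) per cell. The median leading share differed between plasma-lineage and GC B-like cells by 1.25 percentage points over 4 libraries, 0 to 1.67 with a library left out, -1.25 at resolution 1 and 12.5 over 6 libraries with a minimum of 2 UMIs, and between naive or memory B-like and GC B-like cells by -16.7 over 2 libraries and 1.67 with a minimum of 2 UMIs. With a minimum of 10 UMIs only *Smc3* +/- replicate 2 had both plasma-lineage and GC B-like cells, so no comparison over libraries could be made. The median leading share there was 36.4% in 119 plasma-lineage cells and 10% in 5 GC B-like cells. Its naive or memory B-like cells gave no value.

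The 0 genes called by genotype became 2 in GC B-like cells with DESeq2, 36 in naive or memory B-like and 2 in plasma-lineage cells with no filter on low counts, and 1 in plasma-lineage cells without *Smc3* +/- replicate 2 (0 to 1 over left-out libraries). With no filter, 6 of 79 members were among the 36 of 13605 genes called (0.265%) in naive or memory B-like cells (*Ighv3-6*, *Ighv1-19*, *Ighv10-3*, *Ighv1-14*, *Ighv2-5*, *Ighv5-17*), and 1 of 81 among the 2 of 14666 (0.0136%) in plasma-lineage cells (*Ighv5-2*). With no filter and without *Smc3* +/- replicate 2 the calls were 3 over all kept cells, 6 in GC B-like, 17 in naive or memory B-like and 33 in plasma-lineage cells. The replicate block gave 0 calls in all 4 classes. With a library left out, the log2 fold changes of 8 of the 9 members tested over all kept cells ran from -1.04 to 5.26 (*Ighv2-5*), -1.73 to 2.86 (*Ighv1-9*), -0.50 to 6.15 (*Ighv1-19*), -1.61 to 4.53 (*Ighv1-26*), -1.79 to 4.09 (*Ighv1-53*), -1.68 to 4.12 (*Ighv1-55*), -2.02 to 4.38 (*Ighv1-64*) and -0.91 to 2.79 (*Ighv1-81*), each lowest without *Smc3* +/- replicate 2. With no filter and without that library these 8 were at -1.03, -1.77, -0.49, -1.64, -1.79, -1.70, -2.03 and -0.97. The ninth, *Ighv9-3*, ran from 0.055 to 4.26, also lowest without that library. With the replicate block the median of the 9 fell from 3.71 to 0.63, and *Ighv1-9* turned to -0.32. Why these values move was not tested.

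The Simpson index by genotype or class and the family shares of assigned cells gave no value at any planned setting, for want of assigned cells, except over all kept cells with a minimum of 2 UMIs, where 4 libraries reached 10 cells, with 1.31% and 6.67% in WT replicates 2 and 3 and 5.23% and 7.27% in *Smc3* +/- replicates 2 and 3. Outside *Smc3* +/- replicate 2 all values rest on 88 to 359 Ighv UMIs per library.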
